A study of Drosophila melanogaster with 29 samples.

Results

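The genes described here are named as proteins of the cytoplasmic ribosome, measured in adult males and virgin females of 5 laboratory strains of Drosophila melanogaster. Some of them, set apart below as assembly genes, only resemble ribosomal proteins. A gene was taken when a probe set carried its symbol alone in the platform annotation and the symbol began with RpL or RpS, for proteins of the large and the small subunit. The symbols of mitochondrial ribosomal proteins, which begin with mRp, were left out. This gave 37 genes, each with a single probe set, of the 10844 genes that such a probe set names on the array. A further 2 probe sets that name a ribosomal protein gene together with another gene were left out. The RefSeq table for genome Release 6 lists 92 genes with such symbols and holds all 37, of which 13 lie on 3R, 9 on 2R, 8 on 2L, 4 on 3L and 3 on the X chromosome.

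The strains were France, Antigua, Glasgow, Cambridge and Hikone, and each group was 1 strain and 1 sex, with flies 0 to 6 hours after eclosion that were reared and aged at 25°C. Glasgow and Cambridge are separate stocks of Oregon-R, and the Hikone flies carry an Oregon R name in the labels but are listed apart from Oregon-R in the methods. Each group had 3 arrays except the Hikone females, which had 2, so 15 arrays were of males and 14 of females. RNA was extracted separately for each array from a group of flies, and nothing says whether those groups came from separate cultures, so the p-values measure the spread between these samples. All values are GCRMA summaries on the log2 scale, on which a difference of 1 is a 2-fold change.

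A ribosome is built from ribosomal RNA and a large set of proteins, most of which are present in a single copy per particle and are made in every growing cell. In flies, loss of 1 copy of many of these genes gives the Minute phenotype of slow development and thin bristles, so their dose matters for growth. Nurse cells of the ovary make large numbers of ribosomes that are passed to the egg. Several ribosomal proteins of Drosophila are encoded by a pair of genes, of which 1 is used throughout the body and the other is known mainly from the ovary or the testis.

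The lowest correlation between replicates of a group was 0.987 or higher in 8 of the 10 groups, 0.975 in Cambridge males and 0.962 in Cambridge females. The sexes were checked on marker genes. All 14 measured of 16 listed ovary and egg genes were higher in females, and the mean of these genes per array lay between 10.5 and 11.5 in females. It lay between 4.11 and 4.77 in males except in Cambridge male replicate 1, at 8.63. In that array all 14 were higher than in every other male array. Of 13 measured of 14 listed testis and sperm genes 11 were higher in males, with means per array of 8.70 to 9.63 in males and 3.26 to 4.25 in females. The 8 measured of 9 listed accessory gland genes were all higher in males, with means of 10.5 to 11.9 in males and 3.21 to 3.80 in females. These lists move with every difference between the sexes below, and their part in those differences was not tested. In RNA of adult flies, fewer cells of a type and less RNA per cell cannot be told apart.

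For the description the 37 genes were put in 3 classes from their names and known roles, after their values had been seen. The 27 general genes encode the proteins that are used in ribosomes throughout the body. The 7 variant genes are additional copies, RpL10Aa, RpL22-like, RpL37-2, RpS5b, RpS10a, RpS19b and RpS28a. The remaining 3, RpL24-like, RpLP0-like and RpL7-like, resemble ribosomal proteins but correspond to yeast proteins that act in assembly of the large subunit.

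The first comparison asked how transcript levels differed between males and females, averaged over the strains. All 27 general ribosomal protein genes were higher in females, 26 of them by less than 2-fold and RpS29 by 3.57-fold. Of the 7 variant genes, 5 were higher in males and 1, RpS5b, was higher in females by the largest difference of the 37. The 3 assembly genes were higher in females. In total 36 of the 37 genes differed between the sexes at an adjusted p below 0.01 (limma, Bonferroni over all 13966 probe sets tested). Of these, 31 were higher in females, against 28.8% of all probe sets, and 5 were higher in males, against 18.1% of all probe sets. Differences of more than 1 on the log2 scale were found for 4 genes higher in females (17.1% of all probe sets). They were also found for the 5 genes higher in males (13.1% of all probe sets). Of these 5, RpS10a passed 1 only in Cambridge and Hikone. For all 5 it is not known whether the female signals were above background. Female and male arrays did not overlap at all for 31 of the 37 genes, against 28.8% of all probe sets.

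**Figure D1:**
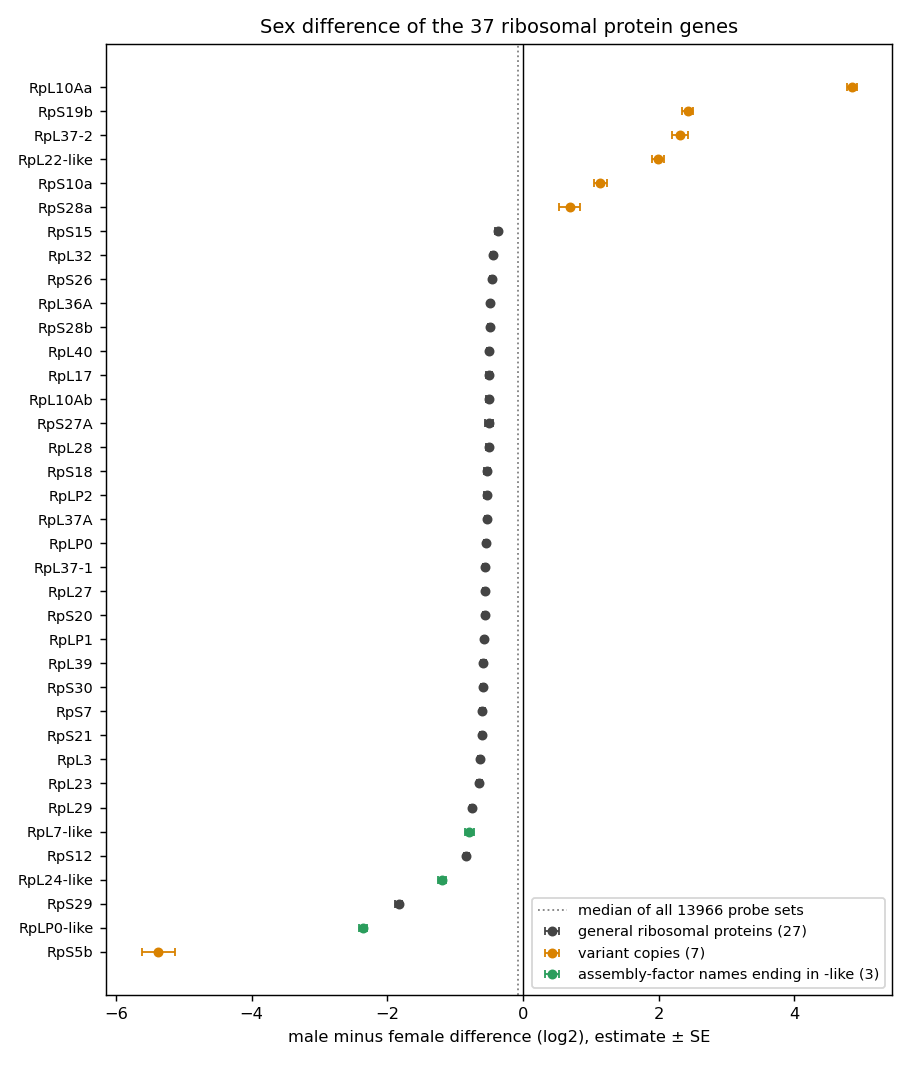
Male minus female difference (log2) of each of the 37 genes, estimate ± SE from the linear model, coloured by class, with the median of all 13966 probe sets as a dotted line. The 27 general genes lie to the left of zero between -1.84 and -0.37, and the variant genes lie at both ends of the axis, from RpS5b at -5.38 to RpL10Aa at 4.85.

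Among the general genes the difference between males and females had a median of -0.54, beside -0.08 for all probe sets. It was between -0.4 and -0.7 for 23 of the 27. The 16 genes of the large subunit had a median of -0.54 and the 11 of the small subunit a median of -0.57. The 3 genes on the X chromosome, RpL37-1, RpL17 and RpS28b, had differences of -0.56, -0.50 and -0.48, and the 24 on autosomes had a median of -0.55, with a range that includes all 3. In each strain all 27 were lower in males than in females, with single values from -0.12 to -2.17.

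The acidic stalk of the large subunit, which brings elongation factors to the ribosome, is made of RpLP0, RpLP1 and RpLP2. RpLP0 was 12.09 in the lowest, 12.38 in the median and 12.52 in the highest female array, and 11.50, 11.74 and 12.05 in the male arrays, so the sexes did not overlap. Its difference was -0.54 ± 0.03 (SE), a 1.45-fold higher level in females (limma adjusted p = 8.64e-10). RpLP1 and RpLP2 differed by -0.57 and -0.54. The stalk genes thus lay at the median of the general genes.

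RpL3, which lies at the catalytic centre of the large subunit, differed by -0.63, and RpL39, a small protein of the tunnel through which the new chain leaves, by -0.58. RpL29 and RpL23, also of the large subunit, differed by -0.76 and -0.65. RpL32, better known as rp49, is a common reference gene for quantitative PCR in flies. Its arrays lay between 12.86 and 13.27 in females with a median of 13.03, and between 12.45 and 12.90 in males with a median of 12.59. It was 1.36-fold higher in females (-0.45 ± 0.03, limma adjusted p = 3.13e-08), and it was 1 of 3 general genes whose sexes overlapped, with RpLP2 and RpS15. The overlap came from the Glasgow strain, in which the difference of RpL32 was -0.12, against -0.47 to -0.58 in the other strains.

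RpL40 and RpS27A are made as fusions of ubiquitin with a ribosomal protein, and RpS30 as a fusion with a ubiquitin-like protein. They were higher in females by 1.41-fold, 1.42-fold and 1.51-fold. Female arrays of RpL40 lay between 12.92 and 13.22 and male arrays between 12.28 and 12.69. For RpS27A the closest arrays of the sexes were 12.42 in females and 12.39 in males. Both were called (limma adjusted p = 6.70e-09 and 0.000102), but the call of RpL40 was lost when the arrays were quantile normalized again (-0.29, adjusted p = 0.0299).

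2 genes of the small subunit differed more than the other general genes. RpS29, a zinc-binding protein of the head of the subunit, was 9.33 in the lowest, 9.91 in the median and 9.97 in the highest female array. In males it was 7.62, 7.83 and 8.48, so the sexes lay far apart. The difference was -1.84 ± 0.05, or 3.57-fold (limma adjusted p = 7.21e-16), and it ranged from -1.57 in France and Glasgow to -2.17 in Antigua. RpS29 was the only general gene past 2-fold, and it also had the lowest mean of the general genes in each sex. Whether its lower brightness bears on the size of its difference was not tested. RpS12, known in Drosophila for its part in the competition between Minute and normal cells, was 12.42 to 12.90 in females and 11.54 to 12.19 in males, and differed by -0.84 ± 0.04. Without RpS29 the general genes ran from -0.84 to -0.37, with RpS15, of the head of the small subunit, at the upper end.

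**Figure D2:**
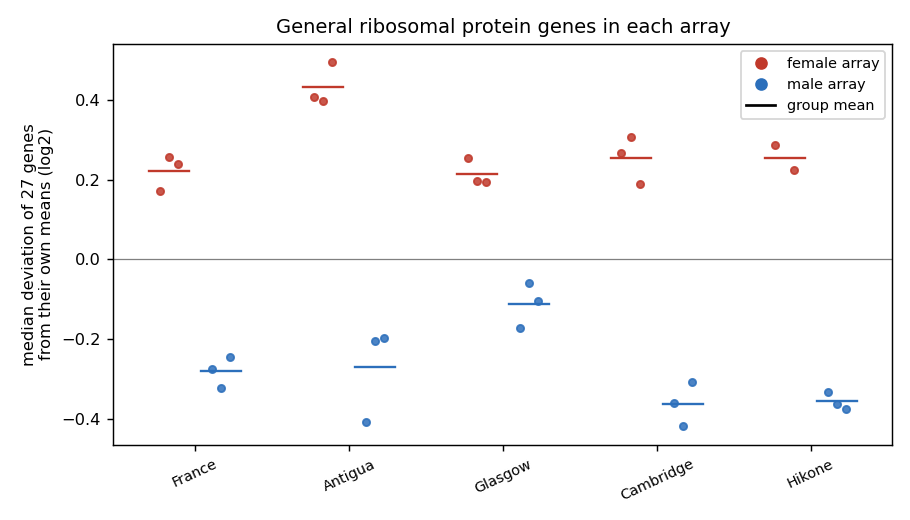
Median deviation of the 27 general ribosomal protein genes from their own means over all arrays (log2), for each array, with group means as lines. Female arrays lie between 0.17 and 0.49 and male arrays between -0.42 and -0.06, with Antigua females highest among the females and Glasgow males highest among the males.

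When the 27 general genes were summarised per array, as the median of their deviations from their own means, the 14 female arrays lay between 0.17 and 0.49 and the 15 male arrays between -0.42 and -0.06. No male array reached a female array. Cambridge male replicate 1, the array with raised ovary and egg genes, stood at -0.36, between its 2 replicates at -0.42 and -0.31. The general genes were bright, since their median lay above 99.1% to 99.6% of all probe sets on each array, and whether this brightness narrowed their differences was not tested. The median of all probe sets was 0.12 higher in the male than in the female groups. Centring the arrays on their medians lowered each male minus female difference by that amount, which enlarges the differences of genes higher in females and cannot turn them.

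The largest differences in each direction were those of variant genes. RpS5b, known from the ovary, was 13.27 in the lowest, 13.42 in the median and 13.96 in the highest female array. In males it was 6.92, 7.95 and 11.66. All male arrays except Cambridge male replicate 1 were at 8.64 or lower, and that array was the one at 11.66, beside 8.64 and 8.15 in its replicates. RpS5b was 41.6-fold higher in females (-5.38 ± 0.24, limma adjusted p = 1.14e-11). Without Cambridge male replicate 1 the difference was -5.60. In the same array the yolk protein gene Yp1 was at 10.85, beside 4.95 and 2.18 in its replicates. The other 6 variant genes in that array lay within the range of the other male arrays.

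RpL10Aa showed the largest difference towards males. It was 3.65 in the lowest, 3.93 in the median and 4.10 in the highest female array, and 7.86, 8.61 and 9.46 in the male arrays. The difference was 4.85 ± 0.07 (limma adjusted p = 2.26e-21), and was 4.54 to 5.12 in the single strains. Its partner RpL10Ab, which encodes the form used throughout the body, went the other way and was higher in females by 1.42-fold (-0.50 ± 0.04, limma adjusted p = 7.30e-08). For this pair the difference was therefore of opposite sign in both genes, and each was called.

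RpS19b, a germline copy of RpS19, was 3.32 to 3.88 in females with a median of 3.70, and 5.04 to 6.94 in males with a median of 6.15. The difference was 2.43 ± 0.08. RpL37-2 was 4.06 to 4.92 in females and 5.91 to 7.82 in males, with medians of 4.52 and 6.72, and differed by 2.31 ± 0.12. The other copy of this gene, RpL37-1 on the X chromosome, was higher in females by 1.48-fold. RpL22-like, known from the male germline, was 3.57 to 5.39 in females and 5.96 to 7.32 in males, with medians of 4.76 and 6.74, and differed by 1.99 ± 0.09. For RpS19b, RpL37-2 and RpL22-like no male array overlapped a female array (limma adjusted p = 3.18e-14, 1.10e-10 and 1.57e-11).

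RpS10a and RpS28a were low in females and uneven in males. RpS10a was higher in males on average (1.14 ± 0.10, limma adjusted p = 1.50e-06), with arrays of 2.78 to 4.01 in females and 3.18 to 6.49 in males that overlapped. RpS28a was the only gene of the 37 without a call (0.69 ± 0.16, limma adjusted p = 1). Its female arrays lay between 2.29 and 2.58. Its male arrays lay between 2.55 and 4.39, and the highest were Hikone replicate 3 at 4.39 and Cambridge replicates 2 and 3 at 4.28 each, beside 2.84 and 2.65 in the other Hikone males and 2.85 in the other Cambridge male. Its partner RpS28b was higher in females by 1.40-fold. No detection calls were used, and for RpL10Aa, RpS19b, RpS10a and RpS28a every female array lay below the medians of all probe sets, 4.30 to 4.42 in the female arrays. Those of RpL37-2 and RpL22-like lay on both sides. Whether these female signals were above background is not known, so the differences of these 6 genes are given on the log2 scale without a fold. A member of such a pair shares sequence with its partner, and whether a probe set also reads the partner was not tested.

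**Figure D3:**
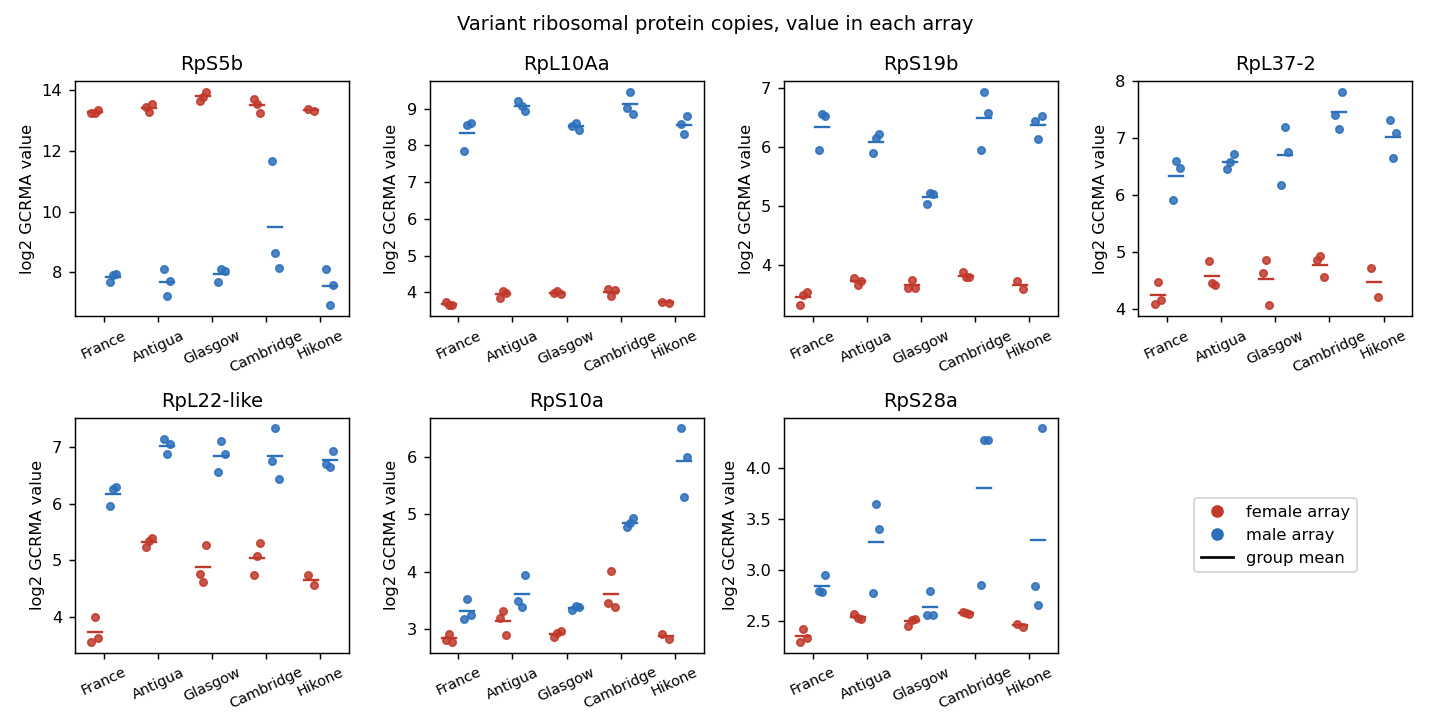
Log2 GCRMA value of the 7 variant genes in each array, by strain and sex, with group means as lines; the axes differ between panels. RpS5b is high in all females, RpL10Aa, RpS19b, RpL37-2 and RpL22-like are high in all males, and RpS10a is high in Hikone and Cambridge males.

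The assembly genes had the same direction as the general genes. RpLP0-like, which corresponds to the yeast protein that holds the place of the stalk during assembly, was 8.48 in the lowest, 8.71 in the median and 9.06 in the highest female array, and 6.15, 6.27 and 6.74 in the male arrays. It was 5.13-fold higher in females (-2.36 ± 0.05, limma adjusted p = 1.15e-17), whereas RpLP0 itself was higher by 1.45-fold. RpL24-like had a median of 9.38 in females and 8.28 in males with no overlap, a 2.29-fold difference. RpL7-like was 6.20 to 7.01 in females and 5.51 to 6.23 in males, which overlapped slightly, and differed by 1.73-fold. The highest male values of RpLP0-like and RpL7-like, 6.74 and 6.23, were both those of Cambridge male replicate 1. RpL24-like was at 7.98 in that array, below its male median and within its male range of 7.55 to 8.62.

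Other genes of ribosome production and use were compared in the same way, on lists put together from known roles and trimmed after their values were seen. Of 27 measured of 29 listed genes of ribosome biogenesis, all 27 were higher in females, with a median difference of -2.76. The largest of these were for NHP2, a protein of the particles that modify ribosomal RNA, at -3.99, NO66 at -3.78 and Nopp140, a nucleolar chaperone, at -3.69. The general ribosomal protein genes had a median of -0.54. Of 20 measured of 26 listed translation factors, 16 were higher in females and 1 in males, with a median of -0.93. The one higher in males was Ef1alpha100E, a copy of the elongation factor that delivers aminoacyl-tRNA, at 1.62, and the most different of those higher in females was eIF-4E, which binds the cap of mRNA, at -1.50. Of 16 measured of 21 listed genes of TOR signalling and growth control, 10 were higher in females and 1, crc, in males, with a median of -0.43. Rack1, a scaffold protein on the small subunit, was at -0.71.

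Mitochondrial ribosomal proteins serve the separate ribosome of that organelle. Of their 64 genes 58 were higher in females and 0 in males by limma at the same threshold, and 6 were not called. Their median was -1.03, and none had a difference above -0.07. The general cytoplasmic genes thus differed by less, at the median, than the genes of biogenesis, translation factors and mitochondrial ribosomes. Differences between the lists were not tested.

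**Figure D4:**
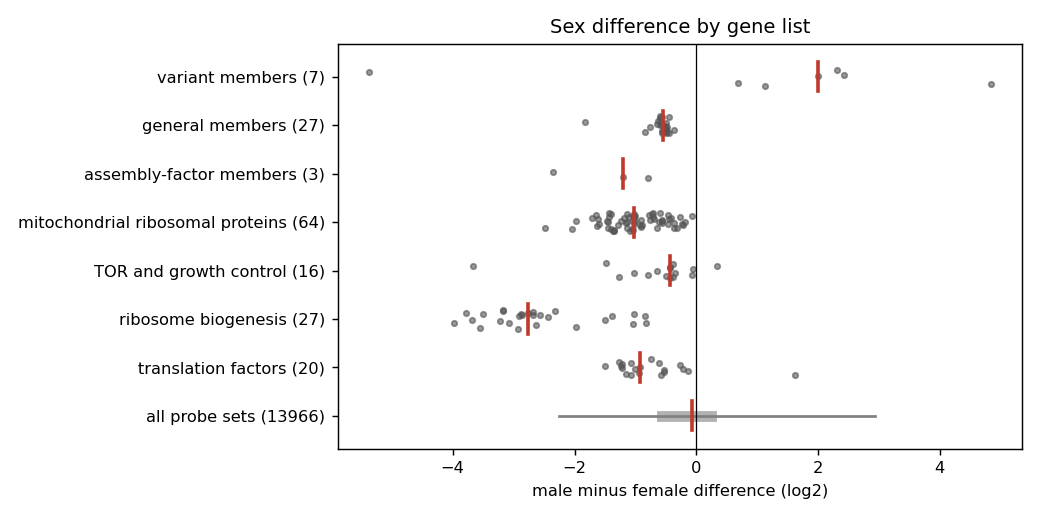
Male minus female difference (log2) of each gene in the 3 classes of ribosomal protein genes and in 4 further lists, with the number of genes in brackets and the median as a red line. For all probe sets the thick bar spans the quartiles and the thin bar the range from the 5th to the 95th percentile. The genes of ribosome biogenesis have a median of -2.76 and the 27 general genes a median of -0.54.

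The second comparison asked whether the ribosomal protein genes differed among the strains. Few did at the threshold used. Averaged over sex, 3 of the 37 were called, against 15.8% of all probe sets, and these were RpS10a, RpLP2 and RpL22-like. In females 0 were called by limma, against 6.53% of all probe sets (19 of 37 at an unadjusted p below 0.05, against 69.3% of all probe sets). In males 3 were called, RpS10a, RpS21 and RpLP2, against 9.67% of all probe sets. The size of the sex difference varied with strain for 1 gene, RpS10a, against 2.56% of all probe sets. At an unadjusted p below 0.05 the counts were 26 of 37 averaged over sex (86.4% of all probe sets), 30 in males (76.3%) and 25 for the interaction (55.4%). With Benjamini-Hochberg adjustment at 0.01 they were 21 averaged over sex (74.8% of all probe sets), 13 in females (44.9%), 25 in males (62%) and 13 for the interaction (19.6%). Averaged over sex and in females the share of these genes was below that of all probe sets at each of the 3 thresholds. In males the order turned with the threshold. For the interaction the share was near that of all probe sets at the Bonferroni threshold. It was above at the unadjusted and the Benjamini-Hochberg thresholds. None of these shares was tested.

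The general genes varied little among strains and also between replicates. Their SD within groups had a median of 0.09, beside 0.16 for all probe sets, and the SD of the 5 strain means had a median of 0.09 in females and 0.11 in males, beside 0.15 and 0.18 for all probe sets. The median F among strains was 4.82 in females and 5.77 in males for the general genes, beside 4.70 and 7.11 for all probe sets. For the interaction of sex and strain the median F was 5.05, beside 3.13.

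RpS10a, a copy of the small subunit gene RpS10, had the clearest difference among strains. Hikone males were at 6.49, 5.30 and 6.00 and Cambridge males at 4.77, 4.84 and 4.93. The other 9 male arrays lay between 3.18 and 3.94, below all of these. Hikone females were at 2.92 and 2.83, among the low values, and Cambridge females at 3.45, 4.01 and 3.39, higher than the other female arrays. The male minus female difference was 3.06 in Hikone and 1.23 in Cambridge, and 0.48, 0.47 and 0.45 in France, Antigua and Glasgow. RpS10a was called averaged over sex (limma adjusted p = 0.000143), in males (6.22e-07) and for the interaction (0.00184). The last call was lost without Hikone male replicate 3 and without either Hikone female, where the adjusted p reached 0.0797. The call in males held when all Hikone males were left out (adjusted p = 0.00939), a choice made after the data were seen. The 2 Oregon-R stocks, Glasgow and Cambridge, did not overlap in males or in females.

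RpS21, a protein of the small subunit whose loss in flies gives overgrowth of the blood-forming organs, varied among males. Glasgow males were at 12.77, 12.90 and 12.87 and France males at 12.63, 12.65 and 12.72. Antigua males were at 12.32, 12.60 and 12.49 and Cambridge males at 12.30, 12.34 and 12.40. Hikone males were lowest, at 12.28, 12.31 and 12.09, and overlapped Cambridge. RpS21 was called in males (limma adjusted p = 0.000607) and not averaged over sex (0.0294) or in females (1). The call ended when probe sets needed a group mean of 5 or more (0.0129), when the male arrays were fitted on their own (0.394) and, chosen after the data were seen, without all Glasgow males (0.175) or all Hikone males (0.0168).

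RpLP2, of the stalk, was lowest in France in both sexes. By group mean, France was also lowest for 54.9% of all probe sets in females and for 48.4% in males. France males were at 12.07, 12.13 and 12.04, below every other male array, and Glasgow males, at 12.58, 12.75 and 12.77, included the highest. France females were at 12.61, 12.82 and 12.79, and Antigua females, at 13.16, 13.26 and 13.17, were above all other females. It was called averaged over sex (limma adjusted p = 0.00361) and in males (0.00653). The call in males was lost when any of 21 of the 29 arrays was left out in turn and that averaged over sex for 10 of the 29. Both ended with repeated quantile normalization (0.05 and 0.0935) and when probe sets needed a group mean of 5 or more (0.0324 and 0.0571). The call in males also ended when the male arrays were fitted on their own (0.545). Chosen after the data were seen, it ended without all Glasgow males (0.224) and held without all Hikone males (0.00611).

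RpL22-like was also lowest in France, as were 54.9% of all probe sets in females and 48.4% in males by group mean. France females were at 3.57, 4.01 and 3.63, beside 4.57 to 5.39 in the other females, and France males were at 5.96, 6.26 and 6.29, beside 6.44 to 7.32 in the other males. It was called averaged over sex (limma adjusted p = 0.00599), but not in females (0.0209) or males (1), and the call was lost for 19 of the 29 arrays left out in turn. RpS19b was low in Glasgow males, at 5.04, 5.22 and 5.20 beside 5.90 to 6.94 in the other males, and missed the threshold in males (limma adjusted p = 0.0188).

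**Figure D5:**
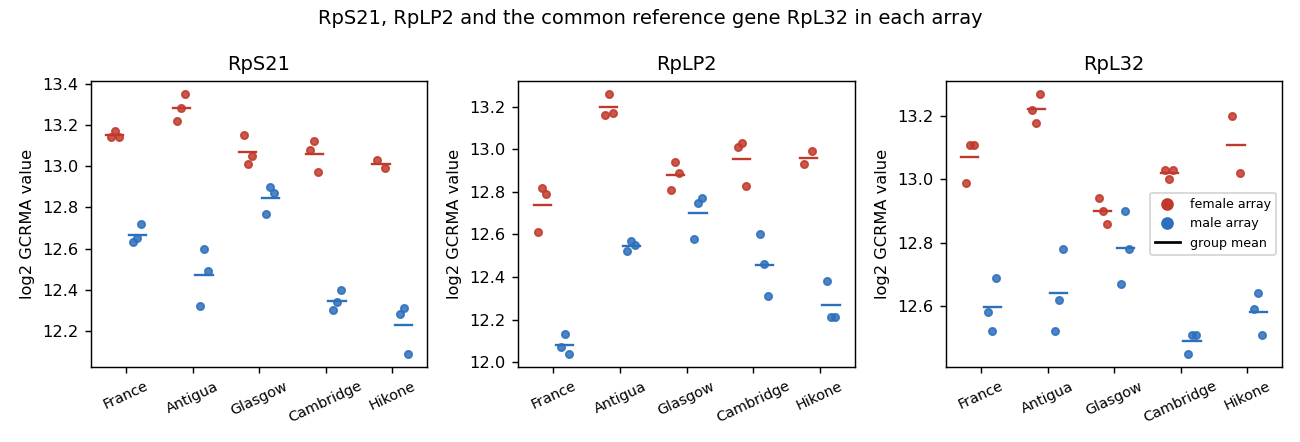
Log2 GCRMA value of RpS21, RpLP2 and RpL32 in each array, by strain and sex, with group means as lines; the axes differ between panels and do not start at zero. Glasgow males have the highest mean among males for all 3 genes, and the sexes overlap for RpL32.

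Although few general genes were called singly, they moved in common between strains. In females 25 of the 27 had their highest group mean in Antigua, beside 13.6% of all probe sets, and in males 22 of the 27 had it in Glasgow, beside 43.7% of all probe sets. In the summary per array, Antigua females were at 0.41, 0.40 and 0.49, above all other female arrays, which reached 0.31. Glasgow males were at -0.17, -0.06 and -0.10, above all other male arrays, which reached -0.20. These counts were made after the values were seen and were not tested, and genes that share arrays are not independent.

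The difference between the sexes was accordingly small in Glasgow, with a median of -0.33 over the general genes, and large in Antigua, with -0.70. It was -0.50 in France, -0.59 in Cambridge and -0.62 in Hikone. The median of all probe sets was 0.04 in Glasgow and -0.14, -0.11, -0.08 and -0.11 in Antigua, France, Cambridge and Hikone. RNA quality also differed between these groups. The signal of the 3′ GAPDH control minus that of the 5′ control, which grows as RNA is less complete, was 2.11, 2.08 and 1.80 in Antigua females, with the highest mean of the female groups, and 2.64, 2.37 and 2.72 in Glasgow males, with the highest mean of the male groups. Over all arrays it was 1.52 to 2.11 in females and 1.49 to 2.72 in males. In females the GAPDH difference averaged 1.62 in France, 1.71 in Glasgow, 1.75 in Cambridge and 1.89 in Hikone. The summary of the general genes averaged 0.22, 0.21, 0.25 and 0.255 there, and 0.43 in Antigua. In males the GAPDH difference averaged 1.76 in France, 2.12 in Hikone, 2.51 in Cambridge, 2.53 in Antigua and 2.58 in Glasgow. The summary averaged -0.28, -0.36, -0.36, -0.27 and -0.11 there. Cambridge and Antigua males were thus close to Glasgow males in the GAPDH difference but lower in the summary. The part of RNA quality in the differences was not tested. Serial numbers in the labels run on within each strain, with males before females. What they number is not stated, and any effect of it cannot be told apart from strain or, within a strain, from sex.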

How the data were processed

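The authors hybridised RNA to Affymetrix Drosophila Genome 1 arrays, adjusted probe intensities for GC content and quantile normalized them, and the deposited values are GCRMA summaries on the log2 scale, used as deposited. The version of GCRMA is not given in the sources used here. The 44 control probe sets were left out and no filter on low values was set. The remaining 13966 probe sets entered 1 linear model of 10 group means in limma 3.58.1 and R 4.3.3. The sex contrast subtracted the average of 5 female groups from the average of 5 male groups, and moderated F-statistics compared the strains over both sexes, in each sex and for the interaction. A gene was called at a Bonferroni-adjusted p below 0.01. The scripts were tested on simulated data. Arrays give no counts, so their number limits the precision.

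The members and lists were chosen with earlier results of these data known. After values were seen 5 names were taken out of the lists, 3 that matched a wrong gene and 2 of uncertain role. Of these 4 were higher in females and 1 was not called. A list of ribosomal proteins under other symbols was cut to Rack1, since its other names were members already, unmatched or no ribosomal proteins. The genes named were all measured members of a pair of copies, the 5 highest and 5 lowest called sex differences, up to 4 called genes by F for each strain test and RpLP0, RpL40 and RpS27A. RpS6, RpS3 and RpL23A of the same rule were not analysed here. Other named genes, RpL37-1 included, were chosen for their roles after their values were seen. Alternatives were another adjustment and other thresholds, centring, repeated quantile normalization, a filter on a highest group mean of 5, moderation with a trend, array weights, a block on replicate number, separate fits of the sexes, controls kept, the mean of a gene's probe sets, the genes ending in -like left out and each array left out.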

Additional observations from a re-analysis of the deposited data

Results flagged for a closer look

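RpS10a was picked out because its male minus female difference differed among the 5 strains, by the interaction test (limma adjusted p = 0.00184). The difference was 3.06 in Hikone, 1.23 in Cambridge and 0.45 to 0.48 in the other strains, and RpS10a was higher in males by group mean in each of the 5 strains. The call was lost without Hikone male replicate 3 (adjusted p = 0.0152), Hikone female replicate 1 (0.0498) or Hikone female replicate 2 (0.0797), and with the replicate block (0.0112).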

How the results depend on the processing

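No sex difference, and not their median, changed sign under any alternative. The strain and interaction tests carry no sign, so there a call could only be kept, gained or lost. The count of 36 genes with a sex difference was 36 whichever array was left out. With Benjamini-Hochberg adjustment 21 genes were called for strain averaged over sex, 13 in females, 25 in males and 13 for the interaction, and RpS28a gained a sex call. At an adjusted p below 0.05 1 gene was called in females, and below 0.0001 0 averaged over sex, 1 in males and 0 for the interaction, while RpS27A lost its sex call. The median sex difference of the 37 genes, -0.54, was -0.66 after centring and -0.41 after repeated quantile normalization, and -0.55 to -0.53 with an array left out. When probe sets needed a group mean of 5 or more, 1 gene was called in females, and the calls of RpLP2 averaged over sex (adjusted p = 0.0324) and in males (0.0571) and of RpS21 in males (0.0129) ended. Repeated quantile normalization also ended both RpLP2 calls (0.05 and 0.0935) and the sex call of RpL40. With array weights 5 were called averaged over sex, 4 in females, 7 in males and 5 for the interaction, but the estimation of the weights stopped before it converged. Fitted on their own, males gave 1 call, as they did without all Glasgow males, chosen after the data were seen. With an array left out the counts were 1 to 3 averaged over sex, 0 to 1 in females, 2 to 4 in males and 0 to 1 for the interaction. Deviations of arrays with the same replicate number correlated at -0.49 to 0.43, with a median of -0.002. Those with different numbers correlated at -0.45 to 0.61, with a median of 0.003, so no pairing by number was seen. With the replicate block 0 interactions were called (RpS10a, adjusted p = 0.0112). The mean of a gene's probe sets was the same by construction, with 1 probe set per gene. Whether brightness narrowed differences of the general genes was not tested, and the Hikone females rest on 2 arrays.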

Other observations

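RpS5b and RpL10Aa, with the largest differences in each direction, lie close together on 3R with 3 protein-coding genes between them in the gene table, and RpL37-2 and RpL22-like, both higher in males, lie on 2R with 16 between them. RpS15 and RpLP2, both general genes higher in females, lie on 2R with 3 between them. RpS20 and RpS30, also general genes higher in females, lie on 3R with 6 between them. On 3R, 8 genes lie between RpS28a, which was not called for sex, and RpL32, which was higher in females. No test was made of these positions. The mean of the testis and sperm genes was 4.25 in Cambridge female replicate 3, beside 3.26 to 3.58 in the other female arrays, and RpL10Aa and RpS19b in that array, at 4.06 and 3.79, were within the range of the other Cambridge females.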
